A study of Mus musculus with 9 samples.

Results

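The 10 genes described here serve the recognition and uptake of apoptotic cells. They are the receptor kinases Mertk, Axl and Tyro3 (the TAM receptors), the bridging molecules Gas6, Pros1 and Mfge8, and the phosphatidylserine and scavenger receptors Timd4, Stab1, Stab2 and Cd36. They were chosen by symbol, with earlier results of these data known, and all 10 were found among the 32285 genes of the count matrices.

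A dying cell exposes the lipid phosphatidylserine, and phagocytes engulf it through receptors that bind this lipid directly or through a soluble bridge, a process called efferocytosis. Gas6 and protein S (Pros1) link phosphatidylserine to the TAM receptors, Mfge8 links it to integrins, and Timd4 and the stabilins Stab1 and Stab2 bind it themselves. Cd36 binds oxidised lipids and apoptotic cells, and in heart muscle and capillary endothelium it also carries long-chain fatty acids. Mertk and Timd4 are known as genes of resident cardiac macrophages.

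Nuclear RNA was counted by single-nucleus RNA sequencing in powdered frozen hearts of 9 male wild-type mice aged 9 to 10 weeks, with 1 library per heart, so p-values measure the spread between hearts. NS-Sham mice received normal saline and a thoracotomy alone. NS-I/R mice received saline and ischemia-reperfusion (I/R), in which the left anterior descending coronary artery was closed for 45 min and reopened for 24 h. Enpa-I/R mice had the same I/R and received enpatoran, which blocks the endosomal receptor TLR7, at 5 mg/kg per dose. Saline and enpatoran were each given intraperitoneally in 2 doses, the first 1 h before ischemia. The sources place the second dose either 2 h later or directly after ischemia. Libraries are named by group and number, such as NS-I/R 3. Each group held 3 hearts, so n = 3 for every mean ± SD, and no sham heart with enpatoran was analysed here. In this design the first contrast, NS-I/R minus NS-Sham, shows the change with injury, and the second, Enpa-I/R minus NS-I/R, shows the change with enpatoran in injured hearts. Both use the NS-I/R libraries, so opposite signs in the 2 contrasts are given side by side and not as separate evidence.

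Library totals were 19.7 to 39.0 M UMIs (unique molecular identifiers, the counted molecules), and 41979 nuclei remained after filtering, with a median of 2365 to 3263.5 UMIs per nucleus and library. Of the kept barcodes, 231 occurred in 2 or more libraries, with 1 to 11 shared by any pair. NS-I/R 3 stood apart: its summed counts differed from those of NS-I/R 1 and 2 with a chi-square per degree of freedom of 57.4 and 67.5, against 8.61 to 20.8 for the other pairs of replicates. Macrophage-like nuclei numbered 824, 1382 and 1139 in the sham, saline I/R and enpatoran I/R groups and made up 6.18 ± 1.30%, 8.99 ± 0.99% and 8.81 ± 1.80% of nuclei. Their 10 macrophage markers summed to 9390 to 12200 CPM (counts relative to all UMIs of the class in a library, TMM-scaled) in the 9 libraries, and none was at 0. Neutrophil-like nuclei made up 0.04 ± 0.017%, 8.97 ± 1.30% and 2.71 ± 1.96% of nuclei.

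In macrophage-like nuclei, Mertk in the saline I/R hearts lay within the spread of the sham hearts, while Axl, Gas6, Timd4 and Stab1 fell to less than their lowest sham value in every NS-I/R heart. Gas6 and Stab1 were higher in the hearts given enpatoran than in the saline I/R hearts, whereas Axl and Timd4 did not pass the test in that contrast. Of the 10 members, 8 passed the filter on low counts in these nuclei, and 5 of those 8 were called with I/R, that is, edgeR's quasi-likelihood test gave a p under 0.05 after Benjamini-Hochberg adjustment. Cd36 was higher, and the other 4 were lower. Among all 10375 genes tested in this class 34.7% were called, 17.8% higher and 16.8% lower. With enpatoran 2 of the 8 were called, both higher, where 6.05% of all genes were called, 2.84% as higher and 3.21% as lower. That count became 1 when NS-I/R 1 or 2 or any one Enpa-I/R library was left out. The median log2 fold change of the 8 members was -0.62 with I/R and -0.05 with enpatoran, beside 0.03 and -0.01 over all genes tested.

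**Figure D1:**
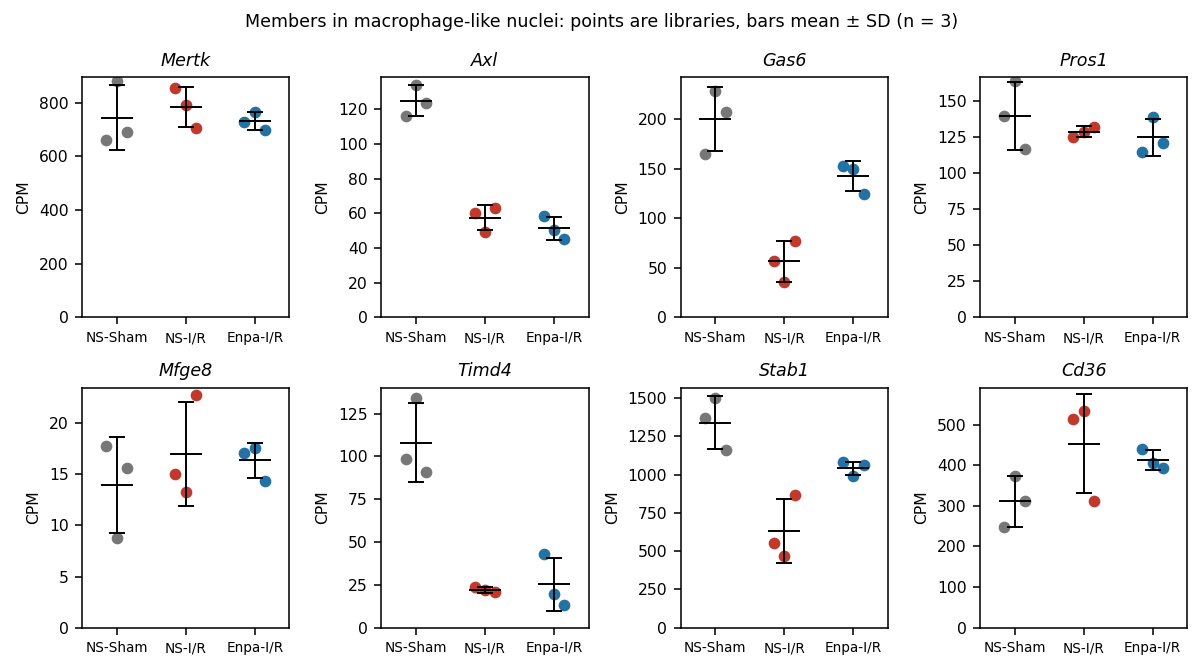
Level of 8 members (CPM, linear axis from 0) in macrophage-like nuclei, with 1 point per library and black bars for the mean ± SD of 3 libraries. Stab1 lies at 1160 to 1500 CPM in sham hearts, 471 to 865 in saline I/R hearts and 993 to 1080 in enpatoran I/R hearts.

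The TAM receptors differed from one another. Mertk, the main efferocytosis receptor of macrophages, was measured at 660, 881 and 690 CPM in the 3 sham hearts, 853, 792 and 707 in the saline I/R hearts and 727, 767 and 699 in the enpatoran I/R hearts. The 3 groups overlapped. The log2 fold change was 0.07 ± 0.14 (SE; edgeR adjusted p = 0.735) with I/R and -0.10 ± 0.14 (edgeR adjusted p = 0.725) with enpatoran.

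Axl, the TAM receptor tied to inflamed tissue, stood at 116, 134 and 124 CPM in sham hearts and at 60.0, 49.3 and 63.2 in saline I/R hearts, with no overlap. It fell by 1.12 on the log2 scale (SE 0.18, edgeR adjusted p = 2e-04). Enpatoran hearts held 58.3, 50.5 and 45.5 CPM, overlapping the saline I/R hearts (log2 change -0.16 ± 0.18, edgeR adjusted p = 0.658). Tyro3, the third TAM receptor, gave 1, 2 and 2 UMIs in all macrophage-like nuclei of the 3 groups and was not tested. A floor of 3 counts over a group corresponds to 1.43, 0.868 and 0.901 CPM in the 3 groups, and Tyro3 lay under it. Such floors cover counting error only.

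Among the bridging molecules, Gas6, the ligand of all TAM receptors, moved most. Its level was 165, 228 and 207 CPM in sham hearts, 56.5, 36.0 and 76.9 in saline I/R hearts and 153, 150 and 125 in enpatoran I/R hearts. Every saline I/R heart lay under every sham heart and under every enpatoran heart. Gas6 fell by 1.81 on the log2 scale with I/R (SE 0.23, edgeR adjusted p = 2.6e-05) and was 1.33 higher with enpatoran (SE 0.23, edgeR adjusted p = 0.00363). Leaving out NS-I/R 3, the library that stood apart, gave -2.11 (edgeR adjusted p = 5.36e-07) and 1.63 (edgeR adjusted p = 3.72e-05). Over all libraries left out in turn, the changes ranged from -2.11 to -1.57 and from 1.09 to 1.63, and both stayed called. In the resident cluster of these nuclei, described below, the enpatoran change was 0.94 and was not called (edgeR adjusted p = 0.0955).

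Pros1, the anticoagulant protein S that binds Mertk and Tyro3, was measured at 140 ± 23.6, 129 ± 3.57 and 125 ± 12.7 CPM in the 3 groups, which overlapped. Its log2 fold changes were -0.15 ± 0.16 (edgeR adjusted p = 0.519) and -0.04 ± 0.16 (edgeR adjusted p = 0.903). Mfge8, a secreted bridge to integrins, was low at 14 ± 4.71, 17.0 ± 5.10 and 16.4 ± 1.71 CPM, and neither contrast passed the test (edgeR adjusted p = 0.469 and 0.936).

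Timd4, the phosphatidylserine receptor of long-lived resident macrophages, had the largest I/R change of the 8 tested members. It was measured at 98.5, 134 and 90.7 CPM in sham hearts and at 23.8, 21.8 and 20.6 CPM in saline I/R hearts. It fell by 2.31 on the log2 scale (SE 0.31, edgeR adjusted p = 4.73e-05). The enpatoran hearts held 42.9, 19.9 and 13.3 CPM, a wide spread that enclosed the saline I/R values, and the log2 change of 0.22 ± 0.34 did not pass the test (edgeR adjusted p = 0.758). Outside macrophage-like nuclei Timd4 gave at most 10 UMIs in any class and group, against 234, 77 and 88 UMIs in macrophage-like nuclei of the 3 groups.

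Stab1, a scavenger and phosphatidylserine receptor shared by macrophages and lymphatic endothelium, was measured at 1370, 1500 and 1160 CPM in sham hearts, 554, 471 and 865 in saline I/R hearts and 1080, 993 and 1060 in enpatoran I/R hearts. The saline I/R hearts lay under both other groups, and NS-I/R 3 was the highest of them. Stab1 fell by 1.10 on the log2 scale with I/R (SE 0.19, edgeR adjusted p = 0.000391).

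With enpatoran Stab1 was 0.72 higher (SE 0.19, edgeR adjusted p = 0.0329), and this call depended on single libraries. The edgeR adjusted p was 0.149 without NS-I/R 1, 0.154 without NS-I/R 2, and 0.114, 0.0862 and 0.0911 without Enpa-I/R 1, 2 and 3, with log2 fold changes of 0.55 to 0.77, and 0.0584 with the 6 libraries of the contrast. Without NS-I/R 3 it was 1.04 (edgeR adjusted p = 4.54e-05). Stab2, the sister gene of Stab1 known from sinusoidal and lymphatic endothelium, gave 2, 8 and 2 UMIs in macrophage-like nuclei and was not tested there.

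Cd36 was measured at 249, 373 and 311 CPM in sham hearts, 515, 533 and 312 in saline I/R hearts and 440, 405 and 393 in enpatoran I/R hearts. The first 2 groups overlapped through NS-I/R 3. The I/R change of 0.53 ± 0.20 just passed the test (edgeR adjusted p = 0.0491). It no longer passed without NS-Sham 1 or 3, NS-I/R 1 or 2, or any one enpatoran library (log2 change 0.39 to 0.54, edgeR adjusted p 0.0589 to 0.19), and without NS-I/R 3 it was 0.74 (edgeR adjusted p = 0.000872). The call was also lost at a mitochondrial limit of 20% (0.34, edgeR adjusted p = 0.143) and under 4 further alternatives. The enpatoran contrast gave -0.14 ± 0.19 (edgeR adjusted p = 0.734).

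The promoters of the 4 members that fell together with I/R in macrophage-like nuclei are shown to let their sequences be compared. Each is the 250 bases before the annotated start, read 5′ to 3′ on the gene's own strand, from RefSeq on GRCm38.p6. All 10 members matched that table. Capitals mark matches, on either strand, to the core of the myeloid factor PU.1 (GAGGAA) or to a MAF half-site (TGCTGAC).
Axl, chr7:25788734-25788983, minus strand: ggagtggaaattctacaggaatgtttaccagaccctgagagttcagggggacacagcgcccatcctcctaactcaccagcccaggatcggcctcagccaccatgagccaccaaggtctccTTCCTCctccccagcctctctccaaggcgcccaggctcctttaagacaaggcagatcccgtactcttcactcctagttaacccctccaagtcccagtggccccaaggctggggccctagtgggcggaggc
Gas6, chr8:13494536-13494785, minus strand: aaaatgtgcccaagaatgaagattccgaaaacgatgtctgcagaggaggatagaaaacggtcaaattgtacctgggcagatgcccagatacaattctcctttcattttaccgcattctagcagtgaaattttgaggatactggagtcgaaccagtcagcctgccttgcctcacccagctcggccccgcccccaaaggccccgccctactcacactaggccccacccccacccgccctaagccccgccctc
Timd4, chr11:46810549-46810798, plus strand: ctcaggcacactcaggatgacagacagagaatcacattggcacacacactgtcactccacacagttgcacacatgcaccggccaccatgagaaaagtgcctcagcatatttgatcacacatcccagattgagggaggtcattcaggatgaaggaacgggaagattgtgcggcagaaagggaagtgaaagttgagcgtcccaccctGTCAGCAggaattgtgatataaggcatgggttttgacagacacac
Stab1, chr14:31168642-31168891, minus strand: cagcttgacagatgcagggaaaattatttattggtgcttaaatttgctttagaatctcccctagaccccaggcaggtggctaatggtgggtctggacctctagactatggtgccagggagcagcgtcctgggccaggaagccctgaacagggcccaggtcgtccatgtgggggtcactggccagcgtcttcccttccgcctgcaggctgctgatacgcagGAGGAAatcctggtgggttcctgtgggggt

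The PU.1 core stood in the windows of Axl and Stab1, the MAF half-site in that of Timd4, and neither in that of Gas6. Searched in windows of 300 bases (250 before to 50 after the start), the PU.1 core occurred in 3 of the 10 members (Axl, Mfge8 and Stab1) and in 28.3% of all 32851 promoters in the table. The MAF half-site occurred in 1 of 10 and in 4.67% of promoters. The E-box CACGTG and the AP-1 site TGANTCA occurred in none of the 10, and in 7.15% and 7.81% of promoters. Each of these windows held a single match, so no matches overlapped. Such matches describe letters in a window and are not evidence of binding.

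Whole genes lay as follows on GRCm38, in the GENCODE M21 annotation: Mertk at chr2:128698956-128802894, Axl at chr7:25757273-25788705, Tyro3 at chr2:119797733-119818104, Gas6 at chr8:13465374-13494490 and Pros1 at chr16:62854307-62929346. Mfge8 lay at chr7:79133768-79149060, Timd4 at chr11:46810800-46844332, Stab1 at chr14:31139013-31168641, Stab2 at chr10:86841198-87008025 and Cd36 at chr5:17781690-17888801. Mertk, Gas6, Stab1 and Stab2 overlap genes on the other strand that the matrices also count: Mertk overlaps Gm14011, Gas6 overlaps Tmem255b, Stab1 overlaps Nt5dc2, and Stab2 overlaps Gm16268, Gm16280 and Gm16271. Whether counting used the strand is not given in the sources used here, so part of these counts could belong to the partner.

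Free RNA in the droplets also gives UMIs, and it bears unequally on the members. After each nucleus was thinned to 1000 UMIs, shares of nuclei with a UMI were compared with those in neutrophil-like and lymphocyte-like nuclei, taken here as the reference for free RNA. In NS-I/R hearts a Mertk UMI occurred in 41.5 ± 2.17% of macrophage-like, 11.2 ± 5.91% of neutrophil-like and 11.2% of T or NK lymphocyte-like nuclei. The Stab1 shares were 37.3 ± 6.56%, 10.8 ± 3.95% and 11.2%, and both genes thus stood well above the other leukocytes. A Timd4 UMI occurred in 1.47 ± 0.79% of macrophage-like and 0.092 ± 0.16% of neutrophil-like nuclei, and in 0 of 80 T or NK lymphocyte-like nuclei, which allows a share of up to 3.75%.

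Gas6 in NS-I/R hearts was seen in 4.46 ± 1.99% of macrophage-like, 3.94 ± 1.36% of neutrophil-like and 4.86% of T or NK lymphocyte-like nuclei, and so did not stand above the other leukocytes. That share joins 2 unlike clusters described below, of which the resident one held Gas6 at 121 CPM and the infiltrating one at 6.97 CPM in these hearts. The part of free RNA in these values was not tested. In Enpa-I/R hearts Gas6 stood at 11.9 ± 0.50% of macrophage-like against 5.27 ± 1.57% of neutrophil-like nuclei, and in sham hearts at 14.5 ± 2.07% of macrophage-like and 0 of 55 T or NK lymphocyte-like nuclei. Axl in NS-I/R hearts (5.00 ± 0.54%) was close to neutrophil-like nuclei (3.66 ± 0.48%). The Cd36 share did not stand above the other leukocytes either, at 29.1 ± 6.03% of macrophage-like, 43.8 ± 4.51% of neutrophil-like and 38.8% of T or NK lymphocyte-like nuclei in NS-I/R hearts. Mfge8 was likewise at 1.31 ± 0.76% of macrophage-like and 3.83 ± 0.19% of neutrophil-like nuclei. No expression in macrophage-like nuclei is read from the Cd36 and Mfge8 shares. The median depths before thinning were 2059.5 UMIs for macrophage-like, 1139 for neutrophil-like and 2057 for T or NK lymphocyte-like nuclei of NS-I/R hearts.

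**Figure D2:**
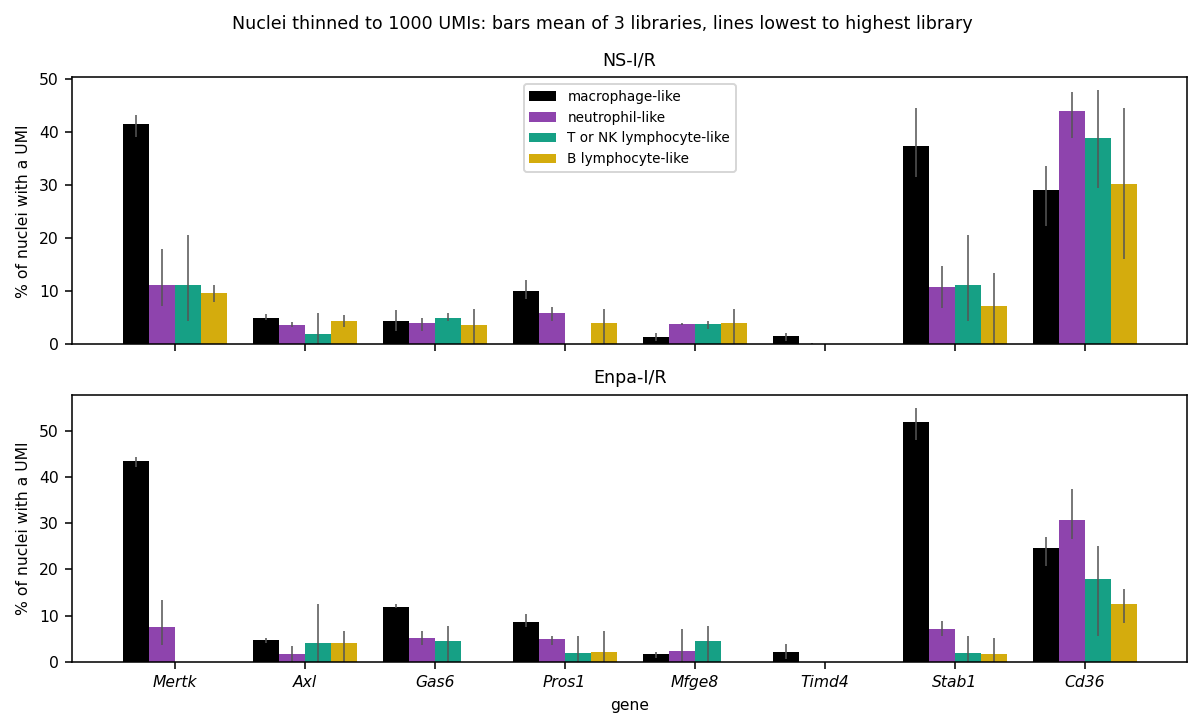
Share of nuclei with at least 1 UMI of a member after thinning to 1000 UMIs (percent, linear axes from 0), in 4 leukocyte classes of NS-I/R (top) and Enpa-I/R hearts (bottom). Bars are means of 3 libraries and lines run from the lowest to the highest library; Mertk and Stab1 stand above the other leukocytes, and Cd36 does not.

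The shares moved with the summed levels. Thinned shares in macrophage-like nuclei of sham, saline I/R and enpatoran I/R hearts were 61.7 ± 2.49%, 37.3 ± 6.56% and 52.0 ± 3.53% for Stab1, and 9.48 ± 2.01%, 1.47 ± 0.79% and 2.11 ± 1.61% for Timd4. Unthinned, the Stab1 shares were 73.5%, 55.8% and 69.7%. Mertk stayed at 42.9 ± 7.66%, 41.5 ± 2.17% and 43.4 ± 1.15%. The exact two-sided permutation test of 3 against 3 libraries cannot go below p = 0.1, the value it gave with I/R for Axl, Gas6, Timd4 and Stab1 and with enpatoran for Gas6 and Stab1 (0.3333 after adjustment over 20 tests). Thinning left out 103, 189 and 111 shallower macrophage-like nuclei of the 3 groups. Of neutrophil-like nuclei it left out 551 and kept 832 in NS-I/R hearts, and left out 160 and kept 164 in Enpa-I/R hearts. The thinned neutrophil-like shares thus describe the deeper nuclei of that class.

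Macrophage-like nuclei fell into 2 clusters, made without the members among the clustering genes. The first, called the resident cluster here, held the resident-state markers Lyve1 (218 CPM), Cd163 (849 CPM) and Cbr2 (159 CPM) over all libraries. The second, called the infiltrating cluster, held these at 8.10, 195 and 8.70 CPM and the monocyte markers Ccr2, Chil3 and Vcan at 393, 426 and 1787 CPM, where the first held 29.9, 22.9 and 32.4 CPM. The marker F13a1 was high in both (5210 and 4997 CPM). The resident cluster made up 93.9 ± 0.93% of macrophage-like nuclei in sham, 49.0 ± 6.83% in saline I/R and 62.6 ± 2.39% in enpatoran I/R hearts. The mixture thus moved together with the levels given above, and its part in them was not tested as such. The values within each cluster stand beside them here.

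Between the clusters the members differed widely, which is a description without a test. On plain CPM (no TMM scaling), Timd4 stood at 45.7, 42.4 and 54.1 in the resident cluster of the NS-I/R hearts, and the infiltrating cluster gave 1 Timd4 UMI in all 3 hearts. Gas6 stood at 121 ± 68.7 CPM in the resident and 6.97 ± 0.82 in the infiltrating cluster, which rests on 4, 3 and 6 UMIs. The receptors were closer: Mertk stood at 1140 ± 96.1 and 470 ± 46.7 CPM, and Stab1 at 868 ± 403 and 462 ± 137 CPM. In the 50 infiltrating-cluster nuclei of the sham hearts Stab1 gave 2 UMIs and Mertk 17, so these few nuclei did not resemble the infiltrating cluster of injured hearts in these genes.

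**Figure D3:**
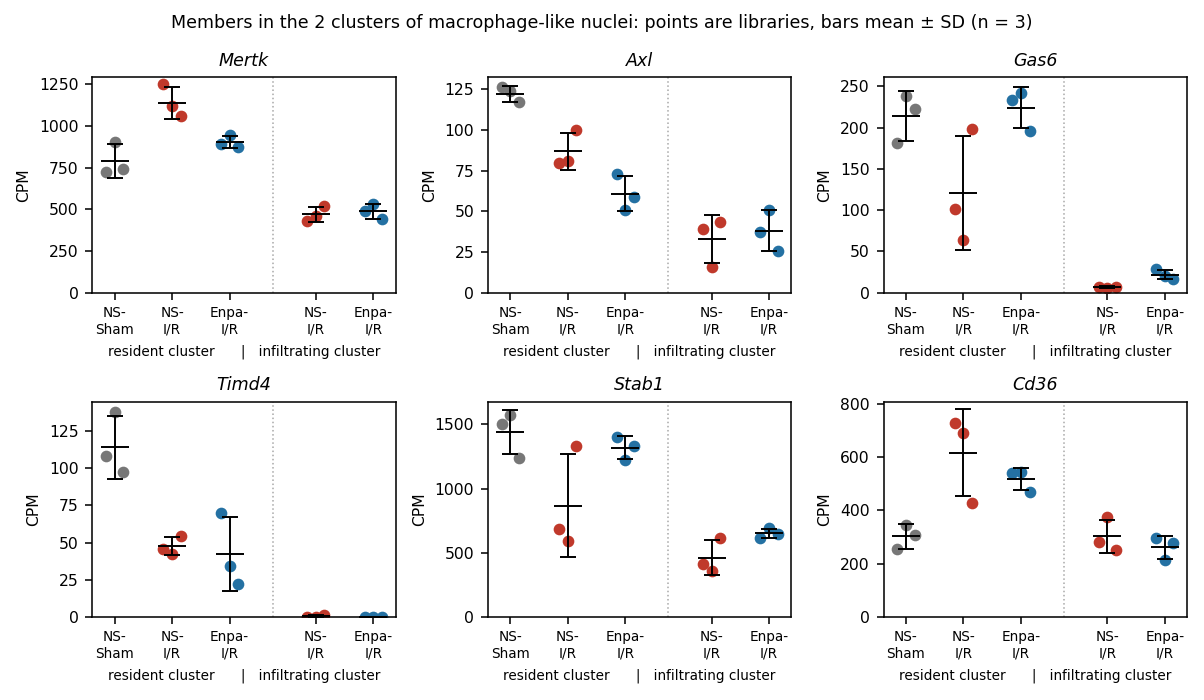
Plain CPM of 6 members (linear axes from 0) in the resident cluster of all 3 groups and in the infiltrating cluster of the 2 I/R groups, with 1 point per library and bars for the mean ± SD of 3 libraries. Timd4 and Gas6 are near 0 in the infiltrating cluster, while Mertk and Stab1 are present in both clusters.

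Within the resident cluster alone, fitted after the data were seen, 5 of 8 tested members were called with I/R, the same 5 as in the whole class, where 22.1% of 8412 genes were called. Timd4 fell by 1.41 (SE 0.31, edgeR adjusted p = 0.00426), Gas6 by 0.94 (SE 0.28, edgeR adjusted p = 0.0259), Stab1 by 0.83 (SE 0.24, edgeR adjusted p = 0.022) and Axl by 0.61 (SE 0.20, edgeR adjusted p = 0.041), each on the log2 scale. Stab1 was 659, 562 and 1310 CPM in NS-I/R 1, 2 and 3, against 1560, 1650 and 1280 in sham hearts, and for Stab1 and Gas6 the groups overlapped through NS-I/R 3. Without that library the changes were -1.29 for Stab1 (edgeR adjusted p = 5.1e-06) and -1.47 for Gas6 (edgeR adjusted p = 5.74e-05). Both calls were lost without NS-Sham 2 or NS-I/R 1 or 2, that of Stab1 also without NS-Sham 1 and that of Gas6 also without NS-Sham 3 (edgeR adjusted p 0.0661 to 0.112). Axl missed the threshold without any one sham library, NS-I/R 1 or 2, or Enpa-I/R 3 (edgeR adjusted p 0.0549 to 0.137), and Timd4 passed without any one library (edgeR adjusted p 0.00154 to 0.0336). Cd36 was 0.91 higher (SE 0.20, edgeR adjusted p = 0.00357), subject to the shares in other leukocytes given above. Mertk was 821 ± 112 CPM in sham and 1100 ± 81.9 CPM in saline I/R hearts, with no overlap, and did not pass the test (log2 change 0.42 ± 0.16, edgeR adjusted p = 0.0633), although it did without NS-I/R 3 (0.46, edgeR adjusted p = 0.021).

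With enpatoran, no member was called in the resident cluster by edgeR, where 1.83% of genes were called. The unadjusted p-values given next have no share over all genes beside them. Gas6 stood at 97.3, 61.6 and 194 CPM in saline and 231, 241 and 196 in enpatoran hearts, without overlap (log2 change 0.94 ± 0.28, unadjusted p = 0.00411, edgeR adjusted p = 0.0955). Stab1 gave 0.64 ± 0.24 (unadjusted p = 0.0185, edgeR adjusted p = 0.178) and Axl -0.47 ± 0.21 (unadjusted p = 0.0415, edgeR adjusted p = 0.255). Without NS-I/R 3, Gas6 was 1.48 higher (edgeR adjusted p = 0.000167) and Stab1 1.10 higher (edgeR adjusted p = 9.4e-05), and no other single library gave either call. Within the infiltrating cluster, in a fit of the 6 I/R libraries, no member was called by edgeR either, where 0.972% of 7408 genes were called. Stab1 had the smallest unadjusted p there, at 464 ± 128 and 647 ± 41.8 CPM (log2 change 0.47 ± 0.20, unadjusted p = 0.039, edgeR adjusted p = 0.266). Gas6, too low to be tested there, was 7.59, 6.11 and 7.33 CPM in saline and 27.7, 20.6 and 17.3 CPM in enpatoran hearts.

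Markers of other cell types in macrophage-like nuclei moved with I/R as well. Of the neutrophil markers 7 of 8 were tested and all 7 rose, their summed level being 72.6 to 98.5 CPM in sham, 341 to 998 in saline I/R and 234 to 272 in enpatoran I/R hearts, with S100a8 and Retnlg at 0 in sham hearts. Of 9 endothelial markers, 4 rose and none fell (sums of 114 to 226, 269 to 523 and 273 to 344 CPM, none at 0). Of 8 cardiomyocyte markers, 7 fell (sums of 4300 to 5170, 2250 to 2310 and 2140 to 3260 CPM, none at 0). Of 6 B lymphocyte markers 2 were tested and both fell (sums of 617 to 844, 70.8 to 97.1 and 190 to 238 CPM, with Cd79a at 0 in sham hearts). The lymphatic endothelial list, whose class also carries Stab1, summed to 169 to 243, 116 to 203 and 247 to 298 CPM, and Lyve1, which macrophages share, fell with I/R and rose with enpatoran. The part of these RNAs in the members' changes was not tested.

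The other genes of the uptake pathway, 74 in 7 lists, were measured in the same macrophage-like nuclei. Of these, 67 were tested, and 19 rose and 16 fell with I/R, while 6 rose and 6 fell with enpatoran. Over all genes tested in this class 34.7% were called with I/R, 17.8% higher and 16.8% lower, and 6.05% with enpatoran, 2.84% higher and 3.21% lower, and these shares are the background for each list below. The median log2 fold change was 0.15 and 0.02, beside 0.03 and -0.01 over all genes. The 12 enpatoran calls became 6 without NS-I/R 2 or Enpa-I/R 2, 7 without Enpa-I/R 1 and 29 without NS-I/R 3. In the resident cluster alone, 61 were tested, 9 rose and 8 fell with I/R, and 2 rose and 1 fell with enpatoran. Over all 8412 genes tested in that cluster, 22.1% were called with I/R and 1.83% with enpatoran.

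Of 16 other recognition receptors 11 were tested, and with I/R 6 rose and 3 fell. The phosphatidylserine receptor Cd300lf was listed at 3.98 ± 4.04 CPM in sham and 624 ± 102 CPM in saline I/R hearts (edgeR adjusted p = 1.01e-09). It is also among the 10 leading genes of the neutrophil cluster, and a Cd300lf UMI occurred in 77.2 ± 6.54% of neutrophil-like, 38.0 ± 6.29% of macrophage-like, 20.9% of T or NK lymphocyte-like and 5.84 ± 0.57% of endothelial-like nuclei of saline I/R hearts after thinning. Unthinned, the first 2 shares were 87.7% and 53.8%. Havcr2, also called TIM-3, rose by 1.87 (SE 0.29, edgeR adjusted p = 0.000177), and the scavenger receptor Colec12 fell by 1.85 (SE 0.31, edgeR adjusted p = 0.000328). With enpatoran 2 of the 11 fell and none rose: Cd300lf to 183 ± 18.9 CPM (log2 change -1.78 ± 0.19, edgeR adjusted p = 0.000427) and the scavenger receptor Msr1 from 869 ± 98.2 to 552 ± 63.1 CPM (-0.66 ± 0.14, edgeR adjusted p = 0.0122). Cd300lf was also called higher with I/R in endocardial-like (7.67), fibroblast-like (7.82), smooth muscle-like (7.2), endothelial-like (6.98) and pericyte-like nuclei (5.44 on the log2 scale), at means of 31.5 to 65.3 CPM in saline I/R hearts. With enpatoran it was lower in endocardial-like (-2.64), endothelial-like (-2.4), fibroblast-like (-2.43) and pericyte-like nuclei (-2.65), and neutrophil-like nuclei went from 8.97 ± 1.30% to 2.71 ± 1.96% of nuclei. The part of neutrophil RNA in the Cd300lf values of macrophage-like nuclei was not tested. Without NS-I/R 1 or 2, or Enpa-I/R 2 or 3, Msr1 missed the threshold (edgeR adjusted p 0.0518 to 0.0682).

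Of 10 other bridging molecules and opsonins 9 were tested, and with I/R 3 rose and 4 fell. Thbs1, thrombospondin-1 and a bridge to Cd36, was listed at 2.69 ± 2.47 CPM in sham and 916 ± 311 CPM in saline I/R hearts (edgeR adjusted p = 9.5e-09). A Thbs1 UMI occurred in 29.1 ± 4.53% of macrophage-like and 19.2 ± 9.42% of neutrophil-like nuclei of saline I/R hearts after thinning. Thbs1 also rose with I/R in pericyte-like (5.23), endothelial-like (5.16), lymphatic endothelial-like (3.68), endocardial-like (2.65) and fibroblast-like nuclei (1.99 on the log2 scale). The complement genes C1qa and C1qc, whose product opsonises dying cells, fell by 1.32 (SE 0.19, edgeR adjusted p = 8.31e-05) and 1.25 (SE 0.19, edgeR adjusted p = 0.000129). With enpatoran 4 rose and 1 fell. C1qa went from 171 ± 53.6 to 340 ± 16.3 CPM (log2 change 0.98 ± 0.19, edgeR adjusted p = 0.00712), Edil3, an integrin bridge, from 55.2 ± 14.2 to 157 ± 29.7 CPM (1.5 ± 0.28, edgeR adjusted p = 0.00553), and Thbs1 to 332 ± 94.7 CPM (-1.47 ± 0.25, edgeR adjusted p = 0.00333). Thbs1 was also lower with enpatoran in endothelial-like (-2.21) and pericyte-like nuclei (-1.52). The part of free RNA in its values in macrophage-like nuclei was not tested.

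All 13 genes of the engulfment machinery were tested, and 1 rose and 5 fell with I/R, among them the actin regulators Dock1 (from 618 ± 54.6 to 335 ± 59.3 CPM, log2 change -0.88 ± 0.15, edgeR adjusted p = 0.000297) and Elmo1 (from 1690 ± 199 to 998 ± 62.9 CPM, -0.76 ± 0.14, edgeR adjusted p = 0.000584). Of 15 phagosome and digestion genes 3 rose and 2 fell. The lysosomal protease Ctsl rose from 18.3 ± 4.70 to 229 ± 25.4 CPM (edgeR adjusted p = 3.1e-08), and Rubcn, a factor of LC3-associated phagocytosis, fell from 104 ± 8.40 to 37.6 ± 8.67 CPM (edgeR adjusted p = 8.91e-05). Other classes shared these calls. Elmo1 also fell in fibroblast-like (-1.13) and endocardial-like nuclei (-0.63 on the log2 scale), and Rubcn in fibroblast-like (-0.82) and smooth muscle-like nuclei (-1.1). Ctsl also rose in pericyte-like (1.29), endothelial-like (0.83) and fibroblast-like nuclei (0.59). Of 8 cargo lipid genes 1 rose, the cholesterol exporter Abcg1 (1.69 ± 0.26 on the log2 scale, edgeR adjusted p = 0.000152). With enpatoran Dock2 was called higher in macrophage-like nuclei (0.53, edgeR adjusted p = 0.0435). Ctsl (-0.72, edgeR adjusted p = 0.0173) and Pparg (-1.37, edgeR adjusted p = 0.0245) were called lower. Each of these enpatoran calls was lost when some single libraries were left out.

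Among 5 genes that limit uptake or shed receptors, 4 rose with I/R and none fell, where 17.8% of all genes were called higher. Cd47, the signal that restrains engulfment, was 171 ± 16.5, 379 ± 61.6 and 200 ± 16.4 CPM in the 3 groups, with log2 fold changes of 1.15 ± 0.16 (edgeR adjusted p = 6.67e-05) and -0.92 ± 0.16 (edgeR adjusted p = 0.00335). Adam10, a metalloprotease that sheds surface receptors, rose by 0.66 (SE 0.16, edgeR adjusted p = 0.00576). Of 7 genes for signals that attract phagocytes 6 were tested, 1 rose and 2 fell with I/R. Those 2 were Cx3cr1 (-2.44 ± 0.37, edgeR adjusted p = 0.000116) and the UDP receptor P2ry6, at 308 ± 24.1, 124 ± 27.2 and 229 ± 19.8 CPM in the 3 groups (edgeR adjusted p = 3.35e-05 and 0.00718).

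Outside macrophage-like nuclei, 7 further classes had at least 25 nuclei in every library. They gave 50 tests of a member in a class, of 70 possible, because low genes were filtered out. With I/R 16 of these were called, 12 higher and 4 lower, where 30.5% of all gene by class tests were called. With enpatoran 2 were called, both lower, where 8.14% were called. The 16 became 9 without NS-Sham 3 and 10 without NS-I/R 1 or 2. The 2 became 11 without NS-I/R 3, 1 without NS-Sham 1 or 3 or Enpa-I/R 2, and 0 without NS-I/R 1 or 2 or Enpa-I/R 1 or 3. By class, the shares of all genes called with I/R and with enpatoran were 34.6% and 7.84% in endothelial-like, 46.7% and 9.61% in fibroblast-like, 45.3% and 19.1% in cardiomyocyte-like and 24.9% and 6.68% in pericyte-like nuclei. They were 10.7% and 0.411% in endocardial-like, 6.05% and 0.0143% in smooth muscle-like and 13.6% and 1.12% in lymphatic endothelial-like nuclei. Levels are compared below between classes that were scaled separately, so only large differences between classes are read. Free RNA also bears on these classes. Unthinned, a Cd300lf UMI occurred in 87.7% of neutrophil-like, 11.1% of cardiomyocyte-like and 9.37% of endothelial-like nuclei of saline I/R hearts. The part of free RNA in the members' changes in these classes, low values among them, was not tested.

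**Figure D4:**
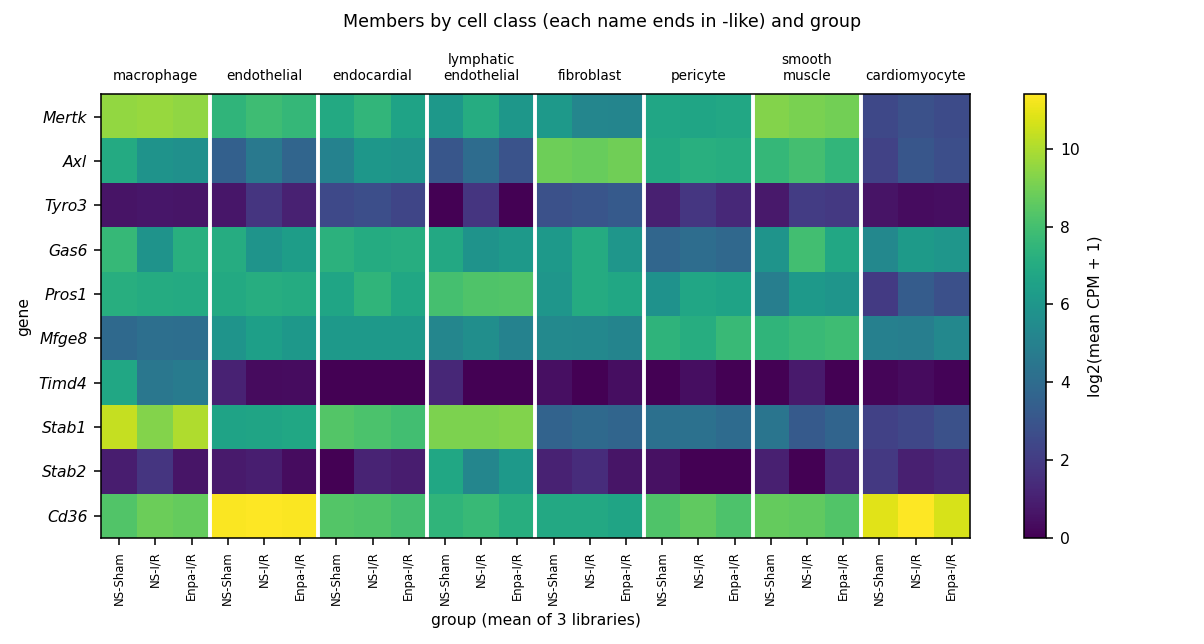
Mean level of the 10 members, as log2(mean CPM + 1), in 8 cell classes and 3 groups, where each column is the mean of 3 libraries. Timd4 is highest in the macrophage columns and Stab2 in the lymphatic endothelial ones, while Cd36 is highest in endothelial and cardiomyocyte columns.

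Mertk in sham hearts was highest in macrophage-like (744 ± 120 CPM) and smooth muscle-like nuclei (627 ± 80.0), whose libraries overlapped. Endothelial-like nuclei followed with 174 ± 10.5, endocardial-like with 122 ± 25.3, pericyte-like with 106 ± 20.1 and fibroblast-like nuclei with 70.3 ± 5.44 CPM, and cardiomyocyte-like nuclei held 4.48 ± 1.21. With I/R Mertk fell in fibroblast-like nuclei from 64.1, 74.2 and 72.7 to 36.0, 36.1 and 36.0 CPM (log2 change -0.97 ± 0.17, edgeR adjusted p = 0.000713). It rose in endothelial-like nuclei from 174 ± 10.5 to 229 ± 35.6 CPM (0.40 ± 0.13, edgeR adjusted p = 0.027). The endothelial call was lost without NS-Sham 1 or 3 or NS-I/R 2 or 3 (edgeR adjusted p 0.0553 to 0.101), and without a low-count filter (edgeR adjusted p = 0.057).

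Axl was highest in fibroblast-like nuclei, at 464 ± 40.9, 431 ± 45.3 and 480 ± 29.8 CPM in the 3 groups, and next in smooth muscle-like nuclei at 193 ± 8.20 CPM in sham hearts. In endothelial-like nuclei it was 7.73, 13.3 and 9.87 CPM in sham and 37.6, 16.8 and 16.7 CPM in saline I/R hearts (log2 change 1.18 ± 0.35, edgeR adjusted p = 0.0197). The high value was NS-I/R 1, and without that library the change was 0.65 (edgeR adjusted p = 0.132). The call was also lost without NS-Sham 1 or 3 (edgeR adjusted p = 0.0777 and 0.0612). A cluster of 432 endothelial-like nuclei led by the heat-shock genes Hspa1a and Hspa1b came almost only from NS-I/R libraries (97.9%). Without it the log2 change of Axl was 0.42 ± 0.28 and was not called (edgeR adjusted p = 0.263, where 35.1% of genes were called). At a mitochondrial limit of 20% it was 0.41 (edgeR adjusted p = 0.162), and with doublets kept 0.34 (edgeR adjusted p = 0.321).

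Axl was also called higher with I/R in cardiomyocyte-like (0.96 ± 0.29, edgeR adjusted p = 0.021) and endocardial-like nuclei (1.10 ± 0.34, edgeR adjusted p = 0.0497). The first missed the threshold without NS-Sham 2 or 3 or NS-I/R 1 (edgeR adjusted p 0.0713 to 0.0774), at a mitochondrial limit of 20% (0.58, edgeR adjusted p = 0.107) and with doublets kept (0.62, edgeR adjusted p = 0.0845). The second missed it without NS-Sham 1 or 2, NS-I/R 1 or 2, or Enpa-I/R 1 or 2 (edgeR adjusted p 0.0518 to 0.211), with the replicate number as a block or the 6 libraries of the contrast (edgeR adjusted p = 0.06 in both), with DESeq2 size factors (0.0504), with DESeq2's own test (0.0821) and with doublets kept (0.089). Tyro3 was tested in fibroblast-like nuclei alone, at 6.02 ± 1.87, 7.01 ± 0.72 and 8.22 ± 2.22 CPM, and neither contrast was called (edgeR adjusted p = 0.54 and 0.616).

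Gas6 changed in opposite directions in different classes. In endothelial-like nuclei it was 137, 137 and 126 CPM in sham, 51.2, 46.9 and 76.0 in saline I/R and 68.9, 88.9 and 84.1 in enpatoran I/R hearts. It fell with I/R (log2 change -1.20 ± 0.17, edgeR adjusted p = 2e-04), and enpatoran did not pass the test (0.47 ± 0.17, edgeR adjusted p = 0.105). In fibroblast-like nuclei it rose from 70.7, 65.9 and 67.6 to 153, 132 and 92.9 CPM (0.89 ± 0.20, edgeR adjusted p = 0.00309).

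Enpatoran hearts held 50.8, 79.0 and 56.4 CPM in fibroblast-like nuclei, all below the saline I/R hearts, and Gas6 was lower there (-1.02 ± 0.20, edgeR adjusted p = 0.0163). That second call was lost without NS-I/R 1 or 2 or Enpa-I/R 1 or 3 (edgeR adjusted p 0.0619 to 0.0751), and with the 6 libraries of the contrast (edgeR adjusted p = 0.0569). Gas6 also rose with I/R in smooth muscle-like nuclei, from 34.7, 76.3 and 67.6 to 163, 273 and 297 CPM (2.01 ± 0.35, edgeR adjusted p = 0.00528), and in cardiomyocyte-like nuclei from 39.5 ± 7.23 to 72.5 ± 12.2 CPM (0.88 ± 0.20, edgeR adjusted p = 0.00528).

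Pros1 was called higher with I/R in 4 of the 8 classes and lower in none, and the part of free RNA in these calls was not tested. In fibroblast-like nuclei it went from 66.6, 58.5 and 64.5 to 119, 142 and 117 CPM (log2 change 1.00 ± 0.14, edgeR adjusted p = 0.000141). In pericyte-like nuclei it went from 52.0, 54.3 and 59.3 to 90.7, 136 and 93.4 CPM (0.96 ± 0.23, edgeR adjusted p = 0.00633). In both classes every injured heart lay above every sham heart, and the enpatoran hearts overlapped the saline I/R hearts. The other 2 classes were endocardial-like (0.75 ± 0.19, edgeR adjusted p = 0.0169) and cardiomyocyte-like nuclei (1.71 ± 0.46, edgeR adjusted p = 0.012, from 2.80 ± 1.40 to 8.88 ± 4.56 CPM). The endocardial call was lost without NS-Sham 1 or 3 or NS-I/R 2 (edgeR adjusted p 0.0501 to 0.0775), and the cardiomyocyte call without NS-Sham 2 or NS-I/R 2 (edgeR adjusted p = 0.0557 and 0.054) and at a mitochondrial limit of 20% (log2 change 0.93, edgeR adjusted p = 0.054).

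Mfge8 was highest in smooth muscle-like (174 ± 31.0 CPM in sham hearts) and pericyte-like nuclei (171 ± 33.8), which overlapped. Its only call was in endothelial-like nuclei, from 67.2, 58.8 and 52.1 to 89.1, 107 and 63.2 CPM with I/R (0.55 ± 0.18, edgeR adjusted p = 0.0305). The groups overlapped, and the call was lost without NS-Sham 2 or 3 or NS-I/R 1 or 2 (edgeR adjusted p 0.0739 to 0.143), and with the 6 libraries of the contrast (edgeR adjusted p = 0.0571).

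Stab1 outside macrophages was highest in lymphatic endothelial-like nuclei, at 561 ± 132, 562 ± 326 and 603 ± 88.6 CPM in the 3 groups, followed by endocardial-like nuclei at 327 ± 86.1, 285 ± 48.9 and 249 ± 32.4 CPM. It was called in no class other than macrophage-like nuclei in the main analysis. Stab2 was found mainly in lymphatic endothelial-like nuclei, at 205, 62.2 and 63.1 CPM in sham, 38.8, 41.2 and 30.1 in saline I/R and 16.6, 100 and 87.8 in enpatoran I/R hearts. The fall with I/R sat at the threshold (-1.53 ± 0.52, edgeR adjusted p = 0.05) and rested on the high NS-Sham 1, without which it was -0.76 (edgeR adjusted p = 0.425). Leaving out NS-Sham 3, any NS-I/R library or Enpa-I/R 3 also ended the call (edgeR adjusted p 0.0539 to 0.0856), as did the replicate block (edgeR adjusted p = 0.0778), doublets kept (0.0734), Leiden resolution 2 (0.057) and DESeq2's own test (0.0672). In cardiomyocyte-like nuclei Stab2 fell from 87 to 33 UMIs over each group's libraries (-1.38 ± 0.40, edgeR adjusted p = 0.0168). That call was lost without NS-Sham 3 or NS-I/R 1 (edgeR adjusted p = 0.0661 and 0.0585).

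Cd36 was by far highest in endothelial-like (2600 ± 348, 2690 ± 718 and 2530 ± 442 CPM) and cardiomyocyte-like nuclei (1910 ± 403, 2650 ± 416 and 1680 ± 250 CPM), where it serves fatty acid entry. In cardiomyocyte-like nuclei it was 2850, 2940 and 2180 CPM in saline and 1950, 1450 and 1660 CPM in enpatoran I/R hearts, without overlap (log2 change -0.66 ± 0.19, edgeR adjusted p = 0.0399). That call was lost when any one library other than NS-Sham 2 or NS-I/R 3 was left out (log2 change -0.77 to -0.55, edgeR adjusted p 0.0558 to 0.143), and with the replicate block (edgeR adjusted p = 0.0539), the 6 libraries of the contrast (0.0709) and a mitochondrial limit of 20% (0.0616). The I/R contrast there did not pass the test (0.47 ± 0.19, edgeR adjusted p = 0.0655).

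The difference between classes was tested directly as an interaction of class and contrast, for macrophage-like against endothelial-like and fibroblast-like nuclei. Timd4, Tyro3 and Stab2 were left out because they lay under 10 CPM in one class of each pair. With I/R, 2 of 7 members were called against endothelial-like nuclei (13.3% of all genes): the change was lower in macrophage-like nuclei by 2.24 for Axl and 1.14 for Stab1 on the log2 scale. Against fibroblast-like nuclei 6 of 7 were called (13.7% of all genes), with differences of -2.60 ± 0.30 for Gas6 (edgeR adjusted p = 2.13e-06), -1.33 ± 0.27 for Stab1, -1.07 ± 0.20 for Pros1, -0.92 ± 0.19 for Axl, 1.11 ± 0.19 for Mertk and 0.60 ± 0.18 for Cd36. With enpatoran, Gas6 was called against both classes, by 0.90 ± 0.22 (edgeR adjusted p = 0.0343, where 2.5% of genes were called) and 2.35 ± 0.29 (edgeR adjusted p = 0.000108, where 2.14% were called). Stab1 was called against endothelial-like nuclei alone (0.63 ± 0.16, edgeR adjusted p = 0.0427). The part of free RNA and of the mixture of macrophage clusters, both given above, in these differences was not tested.

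**Figure D5:**
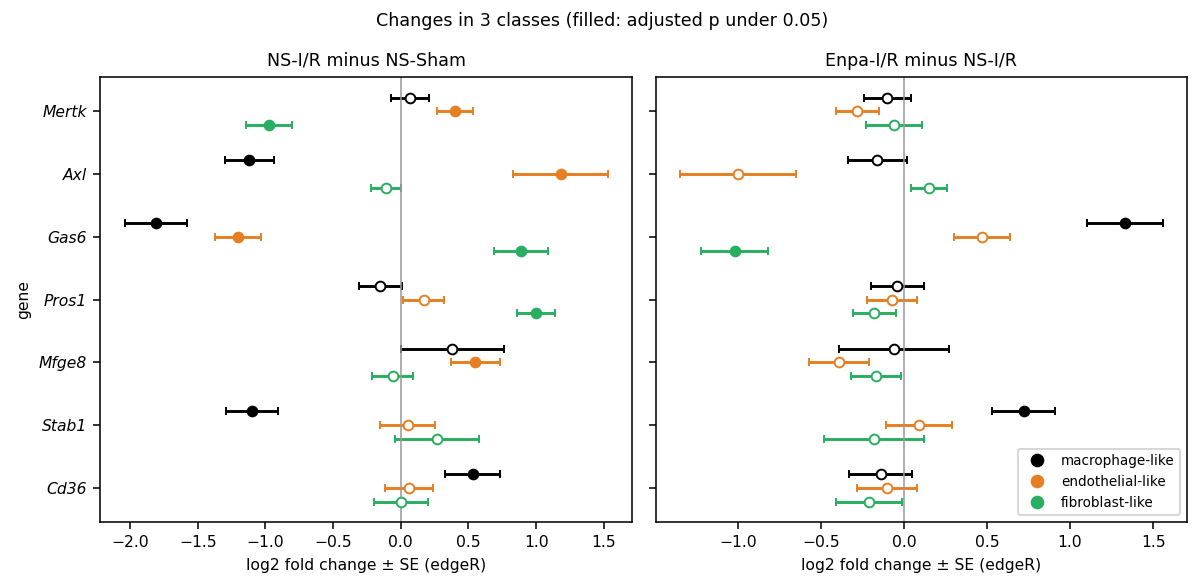
Log2 fold change ± SE of 7 members in macrophage-like, endothelial-like and fibroblast-like nuclei for both contrasts; filled points have an edgeR adjusted p under 0.05. Gas6 with I/R lies at -1.81 and -1.20 in macrophage-like and endothelial-like nuclei and at 0.89 in fibroblast-like nuclei.

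Summed over all nuclei, 3 members were called with I/R. Pros1 rose with I/R (41.3 ± 1.37 to 68.8 ± 5.25 CPM, log2 change 0.74 ± 0.12, edgeR adjusted p = 0.000691, where 47.8% of genes were called), and Timd4 (-1.60 ± 0.33, edgeR adjusted p = 0.00294) and Stab2 (-0.92 ± 0.28, edgeR adjusted p = 0.0221) fell. The Stab2 call was lost without NS-Sham 1 or 3 or NS-I/R 2 (edgeR adjusted p 0.0535 to 0.068). Without NS-I/R 3, Stab1 was also called with I/R (-0.54, edgeR adjusted p = 0.0197) and with enpatoran (0.76, edgeR adjusted p = 0.0051), Gas6 with I/R (0.33, edgeR adjusted p = 0.0467) and Cd36 with enpatoran (-0.56, edgeR adjusted p = 0.0201). Mertk with I/R passed without Enpa-I/R 2 (0.33, edgeR adjusted p = 0.0275) and at a mitochondrial limit of 20% (0.41, edgeR adjusted p = 0.0317), where Tyro3 also passed (0.61, edgeR adjusted p = 0.0454). Gas6 was 66.2 ± 5.12, 80.8 ± 9.01 and 72.2 ± 9.72 CPM and passed in neither contrast (edgeR adjusted p = 0.0857 and 0.379), and with all 9 libraries no member was called with enpatoran by edgeR (16.5% of genes were called). In such sums fewer cells of a type and less RNA per cell cannot be told apart.

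Over the 24 class-by-group means, which share libraries and differ in depth, the genes whose log2(CPM + 1) followed a member most closely were found by Pearson's r. For Timd4 they were Slamf7 (r = 0.972), Gm47754 (0.97) and Fcna (0.968), for Stab1 Mctp1 (0.961), Traf1 (0.95) and Kctd12 (0.944), and for Mertk Tpcn2 (0.928), Arid5b (0.923) and Wwp2 (0.899). Axl was followed by Clmp (0.923), Col1a2 (0.917) and Ubxn2b (0.916), and Pros1 by Shisa5 (0.972), Gnb1 (0.969) and Acsl5 (0.965). The closest genes were weaker for Gas6, namely Sft2d2 (0.745), Atp6v1g2 (0.722) and Itga9 (0.721). For Cd36 they included Lrrc3b (0.892) and Lpl (0.867), and they were for Mfge8 C2cd2 (0.924), Gjc1 (0.887) and Atp1b2 (0.885), and for Stab2 Pld5 (0.966), Gm10475 (0.96) and Gm46560 (0.96). These are descriptions across classes and groups, without a test.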

How the data were processed

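The deposited matrices hold UMI counts per gene and nucleus, made with Cell Ranger 8.0.0 per the file headers. The submitters' processing notes name Cell Ranger 6.1.1, Seurat and the builds GRCm39 and GRCh38. Of the gene identifiers 99.6% occur in GENCODE M21 (GRCm38), which gave the positions. Whether introns were counted, and on which strand, is not given in the sources used here.

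Nuclei with at least 500 genes and at most 5% mitochondrial UMIs were kept, and the highest Scrublet scores of each library were removed as doublets at 0.8% per 1000 barcodes. They were clustered with scanpy 1.11.5 (2000 variable genes without the members and pathway genes, 30 components, Leiden resolution 1) and named from marker lists. The lead a name needed was adjusted for endocardial nuclei after the data were seen. UMIs were summed per library and class (at least 25 nuclei in every library) and fitted over all 9 libraries with edgeR 4.0.16: filterByExpr, TMM, quasi-likelihood test, and Benjamini-Hochberg adjustment over all genes of a class at 0.05. The interaction of class and contrast used the sums of both classes with a term for each library. Scripts were tested on simulated counts in which some genes had a log2 change of 1. For I/R and enpatoran, 38% and 48% of those genes were called in macrophage-like nuclei and 54% and 58.5% in endothelial-like nuclei. The shares were 49.5% and 56% in fibroblast-like and 14% and 14.5% in smooth muscle-like nuclei. The interaction against endothelial-like nuclei called 11.5% for I/R. A test that was not passed therefore does not show that a gene was unchanged.

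The members, gene lists and tests were chosen with earlier results of these data known. All members are named. Of each pathway list the text names from at most 3 called genes per contrast, by size of change, with non-overlapping groups and 10 CPM or more on average. Alternatives were DESeq2 1.42.0 and its size factors, no low-count filter, the 6 libraries of a contrast, a replicate block, leave-one-out fits, Leiden resolution 2, doublets kept, and 20% as the mitochondrial limit. The fits of single macrophage clusters, and of endothelial-like nuclei without the heat-shock cluster, and the shares of nuclei with a Cd300lf or Thbs1 UMI, were added after seeing the data.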

Additional observations from a re-analysis of the deposited data

Results flagged for a closer look

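The change in macrophage-like nuclei differed from that in another class of the same hearts, by edgeR's quasi-likelihood test of the interaction with Benjamini-Hochberg adjustment, for 11 combinations of member, class and contrast.

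Against endothelial-like nuclei, the log2 fold change with I/R was lower in macrophage-like nuclei by -2.24 ± 0.34 (SE) for Axl (edgeR adjusted p = 0.000113) and by -1.14 ± 0.17 for Stab1 (edgeR adjusted p = 7.19e-05). With enpatoran it was higher by 0.90 ± 0.22 for Gas6 (edgeR adjusted p = 0.0343) and by 0.63 ± 0.16 for Stab1 (edgeR adjusted p = 0.0427).

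Against fibroblast-like nuclei, the I/R change was higher in macrophage-like nuclei by 1.11 ± 0.19 for Mertk (edgeR adjusted p = 0.000232) and by 0.60 ± 0.18 for Cd36 (edgeR adjusted p = 0.0257). It was lower by -0.92 ± 0.19 for Axl (edgeR adjusted p = 0.00166), -2.60 ± 0.30 for Gas6 (edgeR adjusted p = 2.13e-06), -1.33 ± 0.27 for Stab1 (edgeR adjusted p = 0.00174) and -1.07 ± 0.20 for Pros1 (edgeR adjusted p = 0.000788). With enpatoran the difference for Gas6 was 2.35 ± 0.29 (edgeR adjusted p = 0.000108). Axl in endothelial-like nuclei rests partly on the heat-shock cluster and NS-I/R 1, as given above. Neither Cd36 nor Gas6 in macrophage-like nuclei of NS-I/R hearts stood above the other leukocytes. Macrophage-like nuclei also join a resident and an infiltrating cluster, with Gas6 at 121 and 6.97 CPM in NS-I/R hearts. The resident one made up 93.9, 49.0 and 62.6% of them in sham, saline I/R and enpatoran I/R hearts. The part of free RNA and of this mixture in the differences was not tested.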

How the results depend on the processing

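Leaving out each library in turn gave 4 to 5 members called with I/R in macrophage-like nuclei (5 with all libraries) and 1 to 2 with enpatoran (2), and outside macrophages 9 to 19 calls with I/R (16) and 0 to 11 with enpatoran (2). Pathway calls ranged from 29 to 38 with I/R (35) and from 6 to 29 with enpatoran (12). With the 6 libraries of the contrast alone the enpatoran counts were 1 member in macrophage-like nuclei and 0 outside, without a low-count filter 7 outside and 20 pathway genes, and with a mitochondrial limit of 20% 1 outside. The resident cluster alone gave 0 members with enpatoran, and 17 and 3 pathway genes with I/R and enpatoran, where 22.1% and 1.83% of all genes were called. The enpatoran interaction against endothelial-like nuclei called 1 member with DESeq2 size factors, against 2. The cause of these moves was not tested, and the fits with libraries left out also hold fewer libraries.

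Same-numbered libraries correlated between -0.081 and 0.036 in macrophage-like nuclei, and in no class did all 3 pairs of 2 groups pass 0.1. Those of NS-Sham and NS-I/R gave 0.061 to 0.09 in cardiomyocyte-like and 0.048 to 0.082 in pericyte-like nuclei. Such correlations cannot decide whether same-numbered hearts were handled together. In the sums over all nuclei the 3 pairs of NS-Sham and NS-I/R each gave 0.107, while those of NS-I/R and Enpa-I/R gave -0.268 to -0.071. With the replicate block the 3 calls of those sums remained (edgeR adjusted p = 0.00144 for Pros1, 0.00564 for Timd4 and 0.0377 for Stab2). With the number as a replicate block, 5 and 2 members were called in macrophage-like nuclei, as without it, and 14 and 1 outside: the calls lost were Axl in endocardial-like and Stab2 in lymphatic endothelial-like nuclei with I/R and Cd36 in cardiomyocyte-like nuclei with enpatoran.

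Some differences in thinned shares changed sign between settings. Mertk with I/R ranged from -3.70 to 3.00 percentage points over left-out libraries, and with enpatoran Mfge8 ranged from -0.09 to 0.73 and Timd4 from -0.21 to 1.39. At 1000 UMIs, Axl with enpatoran was -0.36 and Pros1 -1.5. Without thinning, Axl with enpatoran was 0.98 and Pros1 3.18, and Pros1 was 3.11 at 2000 UMIs, so the direction for Pros1 depended on the thinning depth. Log2 fold changes that did not pass the test also changed sign. With I/R, Mertk ranged from -0.01 to 0.21 over left-out libraries, Mfge8 was -0.19 at 20% mitochondrial UMIs and Pros1 was 0.44 in the resident cluster. With enpatoran, Axl was 0.03 at 20% and 0.03 with doublets kept, and over left-out libraries Pros1 ranged from -0.12 to 0.02, Mfge8 from -0.21 to 0.23 and Timd4 from -0.37 to 0.50. In the infiltrating cluster Mertk was 0.04, Axl 0.19, Pros1 0.05 and Mfge8 0.11, and in the resident cluster Timd4 was -0.10. No called member of macrophage-like nuclei changed direction under any of these alternatives. Axl, Gas6, Timd4 and Stab1 kept their I/R calls in all 18 alternatives counted for each, which include the resident cluster alone with all 9 libraries. When single libraries were left out within the resident cluster, Axl, Gas6 and Stab1 lost their calls, as given above.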
